A study of Mus musculus with 6 samples.

Results

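The genes described here are 36 markers of stratified squamous epithelium, followed in mouse colon tumours. They were taken by name from the array's annotation, using every probe set (a set of short oligonucleotides that together measure 1 transcript) that carries exactly 1 of these symbols, with no minimum level. The rule found 60 probe sets for 35 of the 36 genes, out of 45101 probe sets on the array and 18193 genes with a probe set of their own. Dsg3 had no such probe set and was not analysed here. The list was drawn up with the values of these arrays known, after Krtdap and Trp63 had been seen to be high on a single array, so every level and difference of the members below is a description and supports nothing by itself.

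Gene expression was measured on 6 Affymetrix arrays of total RNA from colon tumours of mice labelled male, all of the mixed strain CBA/C57BL/6. Of these, 3 are wild type control mice and 3 carry a human IL8 transgene. IL8 is a human chemokine that draws neutrophils. The design compares tumour expression with and without the transgene. The labels used here do not state the promoter of the transgene, the ages of the mice, the origin of the tumours, their place in the colon or the number of tumours behind an array. The p-values therefore reflect sample-to-sample spread alone, which may be technical.

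The arrays had like overall levels, with medians of 3.31 to 3.36 on the log2 scale and between 41.7% and 43.0% of probe sets at 4 or more. The transgenic arrays went against the label of male sex, as Xist, which silences an X chromosome in female cells, lay at 12.27 to 12.89 on all 3 transgenic arrays and at 2.33 to 2.64 on all 3 control arrays. Genotype and this difference cannot be told apart in any comparison of the groups. Genes of columnar epithelium were detected throughout, as all 20 genes of a colon columnar epithelium list reached 4 on 5 arrays and 18 of them on transgenic array 1. That list also holds genes of simple epithelium in general, and some of its genes varied widely, such as Slc26a3, at 3.02 to 10.80.

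Stratified squamous epithelium is a layered lining. Cells of its basal layer sit on the basement membrane, carry the keratin pair Krt5 and Krt14 and depend on the transcription factor p63, the product of Trp63. Cells that move up into the suprabasal layers change to Krt1 and Krt10 in skin-like, cornifying epithelium, or to Krt4 and Krt13 in moist mucosa, and are tied together by desmosomes. In the outermost cells transglutaminases crosslink involucrin and the small proline-rich (SPRR) proteins into a cornified envelope. The colon is lined by a simple columnar epithelium, and stratified squamous epithelium begins at the anal canal.

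Nearly all of the squamous genes were highest on a single transgenic array, and 13 of them were detected on no other. Of the 35 measured genes, 33 had their highest value on transgenic array 2, where 28.2% of all genes had theirs. On that array 34 members reached a log2 value of 4, the level used here for detection, against 17 to 20 members on each of the other 5 arrays. On transgenic array 2 the mean over the members was 9.52. On the other arrays it lay between 5.15 and 5.49, with control and transgenic arrays intermixed.

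**Figure D1:**
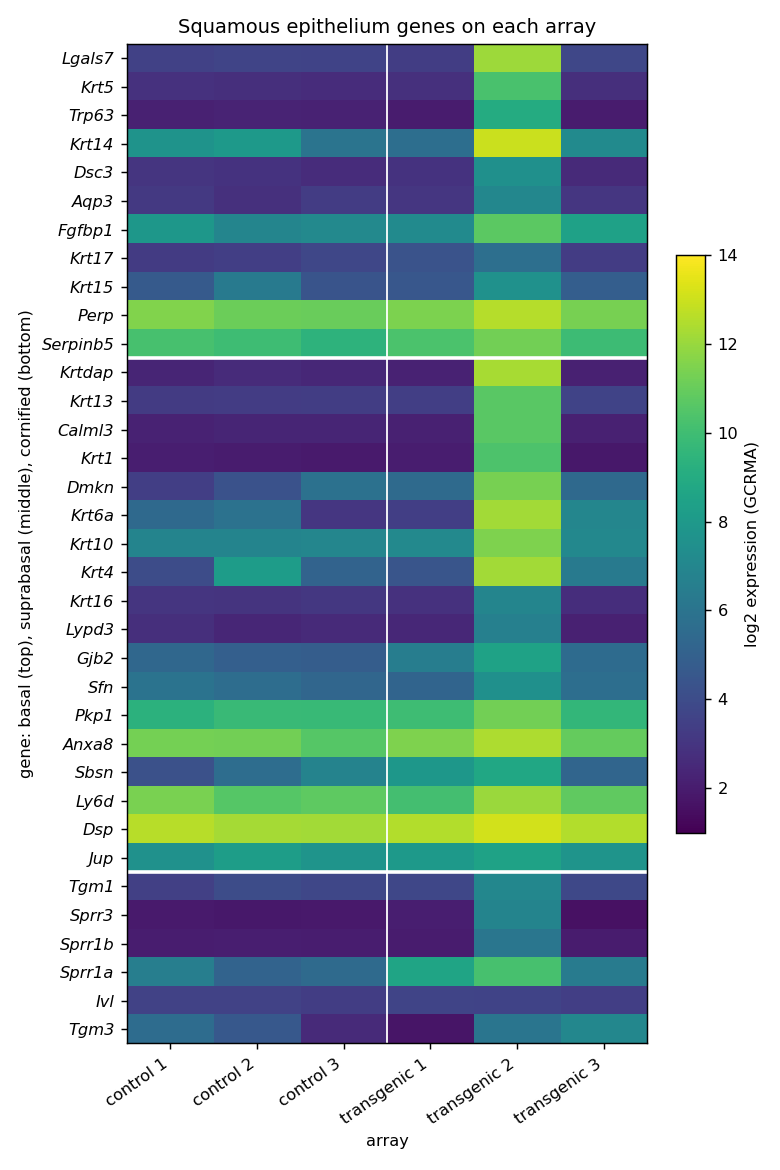
Each row is 1 of 35 squamous epithelium genes (its brightest probe set) and each column 1 of the 6 arrays; colour gives the log2 expression value, and white lines part the basal, suprabasal and cornified genes and the 2 groups. Transgenic array 2 stands apart with 34 genes at 4 or more, while genes such as Dsp and Perp are bright on every array.

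The members fell into distinct patterns, of which 13 genes reached 4 on transgenic array 2 and on no other array. A further 16 genes reached 4 on all arrays, 5 on 2 to 5 arrays, and Ivl on none. These patterns are those of the brightest probe set of each gene, and other probe sets of a gene can differ, as for Krt4 and Krt14. To measure how far transgenic array 2 stood apart, values under 4 were set to 4 and the highest of the other 5 arrays was subtracted; where those 5 lay under 4, the resulting fold is a lower bound and is written "at least". By this measure 14 of the 35 members stood at least 8-fold above every other array. Over all genes the same was true of 53 of 18193 on transgenic array 2 (0.291%), of 6 on transgenic array 1 (0.0330%) and of 0 on each of the other 4 arrays. Since the members were chosen by a list made with the log2 values of this array known, the comparison with all genes says only how rare the pattern is.

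**Figure D2:**
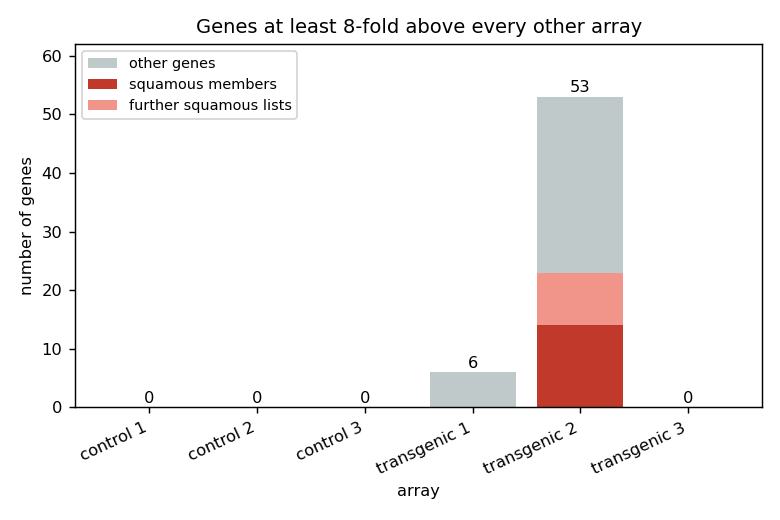
Bars count, for each array on the x axis, the genes whose log2 value there was at least 8-fold above every other array (values under 4 set to 4). Transgenic array 2 has 53 such genes, 14 of them members and 9 from further lists of squamous genes, transgenic array 1 has 6, and the other 4 arrays have 0.

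Among the keratins of the basal layer, Krt5 gave the plainest on and off pattern. Its log2 values were 2.86, 2.74 and 2.66 on control arrays 1 to 3 and 2.82, 10.27 and 2.77 on transgenic arrays 1 to 3. Only transgenic array 2 was high, by at least 76.9-fold, and the other transgenic arrays lay among the controls. Krt14, which pairs with Krt5 in basal filaments, was at 7.67, 8.04 and 6.00 in control and at 5.70, 12.93 and 7.21 in transgenic tumours, so that it was detected everywhere and stood 29.7-fold above the next array on transgenic array 2. That probe set is of a kind that can also bind related keratin transcripts. Another Krt14 probe set gave 4.50, 5.38 and 3.93 in control and 3.38, 11.60 and 4.67 in transgenic tumours, and the remaining probe set stayed at 3.29 or less on all arrays. Krt15, a keratin of resting basal cells, was at 4.67, 6.30 and 4.40 against 4.53, 7.57 and 4.86, and stood 2.42-fold above the next array. Krt17, which is induced in stressed or wounded epithelium, reached 5.74 on transgenic array 2 and 4.31 on transgenic array 1, with the others at 3.74 or less. Its other probe set stayed at 2.23 or less on all arrays.

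Trp63 was high on the same array. Of its 4 probe sets, 1 read 2.20, 2.29 and 2.22 in control and 1.97, 8.97 and 1.98 in transgenic tumours, at least 31.4-fold apart, and the other 3 stayed under 4 everywhere. The desmosomal cadherin Dsc3 reached 7.52 there, against 3.02 or less elsewhere, and its other probe set stayed at 3.05 or less on all arrays. Lgals7, the galectin of stratified epithelia, was at 3.52, 3.68 and 3.63 in control and at 3.36, 12.11 and 3.75 in transgenic tumours, at least 276.9-fold apart. Aqp3, a water and glycerol channel, reached 7.01 against 3.29 or less, at least 8.08-fold apart. Of its 4 probe sets 2 reached 4, both on transgenic array 2 alone, and the others stayed under 4 everywhere. Fgfbp1, a secreted carrier of fibroblast growth factors, was already at 6.90 to 8.42 on the other 5 arrays and at 10.73 on transgenic array 2. Serpinb5, also called maspin, and Perp, a desmosome protein under p63 control, were high on every array. Serpinb5 ranged from 9.41 to 10.31 on the other 5 arrays and reached 11.21, and Perp ranged from 11.03 to 11.51 and reached 12.55. These 2 genes stood 1.87-fold and 2.06-fold above the next array.

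In the suprabasal layers the keratins of both the cornifying and the mucosal programme were high on transgenic array 2. Krt1 was at 2.11, 2.01 and 1.96 in control and at 2.04, 10.35 and 1.85 in transgenic tumours, at least 81.8-fold apart. Its partner Krt10 was at 6.88, 6.85 and 6.95 against 7.11, 11.50 and 7.07. The other arrays thus all lay near 7, and transgenic array 2 stood 20.9-fold above the next of them. Krt13 was at 3.24, 3.32 and 3.34 against 3.40, 10.70 and 3.62, at least 103.7-fold apart, and all 3 of its probe sets were high on transgenic array 2 alone. Its partner Krt4 was at 4.05, 8.198 and 5.16 in control and at 4.45, 12.19 and 6.30 in transgenic tumours. Krt4 was thus next highest on control array 2, and transgenic array 2 stood 15.9-fold above that array.

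Krt6a and Krt16 are keratins of activated or rapidly renewing epithelium. Krt6a was at 5.42, 5.89 and 3.06 in control and at 3.40, 12.20 and 6.96 in transgenic tumours, 37.9-fold above the next array on transgenic array 2. Another Krt6a probe set reached 4 on transgenic arrays 2 and 3 alone, at 10.83 and 4.20. The remaining one reached 4 on transgenic array 2 alone, at 9.52. The near-identical copy of Krt6a, Krt6b, reached 13.24 on transgenic array 2, against 2.10 or less elsewhere, at least 604.3-fold apart. How far probes of these copies read each other is uncertain. Krt16 was at 6.94 against 3.11 or less.

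Secreted and signalling products of the suprabasal layers gave some of the widest gaps. Krtdap, a peptide made by differentiating keratinocytes, was at 2.33, 2.62 and 2.43 in control and at 2.23, 12.31 and 2.22 in transgenic tumours. That gap, at least 317.4-fold, was the widest of any member. Calml3, a calmodulin-like protein of epithelia, was at 10.68 against 2.35 or less, at least 102.8-fold apart. Dmkn, a secreted keratinocyte protein, was at 3.42, 4.29 and 5.85 against 5.49, 11.31 and 5.47, 44.0-fold above the next array. Sbsn, or suprabasin, ran differently, at 4.22, 5.67 and 6.84 in control and at 7.89, 8.75 and 5.23 in transgenic tumours. Its values spread over all arrays, and transgenic array 2 stood 1.82-fold above transgenic array 1.

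Most genes of junction and surface proteins in the list were detected on every array. Dsp, the desmoplakin that links desmosomes to keratin, lay at 12.22 to 12.62 on the other 5 arrays and at 13.12 on transgenic array 2. Jup, or plakoglobin, lay at 7.58 to 8.23 and at 8.47, and Pkp1, or plakophilin 1, at 9.36 to 9.94 and at 11.22. Their gaps to the next array were 1.41-fold, 1.18-fold and 2.42-fold, in that order. Dsp and Jup are also desmosome parts of the columnar epithelium. Gjb2, a gap junction connexin, was at 5.35, 4.92 and 4.83 in control and at 6.52, 8.48 and 5.57 in transgenic tumours, with all transgenic arrays above all control arrays. Lypd3, a surface protein of suprabasal keratinocytes, was at 6.65 against 2.75 or less. Sfn, the 14-3-3 protein of epithelial cells, lay at 5.19 to 5.97 and at 7.55, Anxa8 at 10.58 to 11.49 and at 12.42, and the surface protein gene Ly6d at 10.14 to 11.39 and at 12.03.

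The cornified envelope genes had a median gap of 1.85 on the log2 scale, against 3.01 for basal and 2.79 for suprabasal genes, with 0 of 6 at least 8-fold above every other array. Of the basal genes 6 of 11 were, and of the suprabasal genes 8 of 18. The contrast depends on the cut and on the list, as Tgm1 (7.87-fold) and Sprr3 (at least 7.28-fold) just missed 8-fold. Of 32 measured suprabasal and cornified genes outside the members, 7 passed it, among them the cornified envelope genes Lce3f, Rptn, Sprr2d and Lor. Lor, or loricrin, was at 7.27 against 2.99 or less, at least 9.63-fold apart. Ivl, which encodes involucrin, was under 4 on all arrays for both of its probe sets, at 3.63 on transgenic array 2 and at 3.36 to 3.67 on the others. Sprr1b reached 6.09 on that array against 2.07 or less, at least 4.26-fold apart, and Sprr3 reached 6.86 against 2.09 or less, at least 7.28-fold. Because the other arrays were at background, these folds are bounds, and the difference of the layers was not tested. Sprr1a was detected on every array, at 6.55, 5.15 and 5.51 in control and at 8.59, 10.19 and 6.41 in transgenic tumours. Tgm1, the main transglutaminase of keratinocytes, was at 7.01 against 4.03 or less. Tgm3 did not follow the others. It was at 5.61, 4.59 and 2.55 in control and at 1.75, 6.04 and 7.02 in transgenic tumours, highest on transgenic array 3 and lowest on transgenic array 1.

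**Figure D3:**
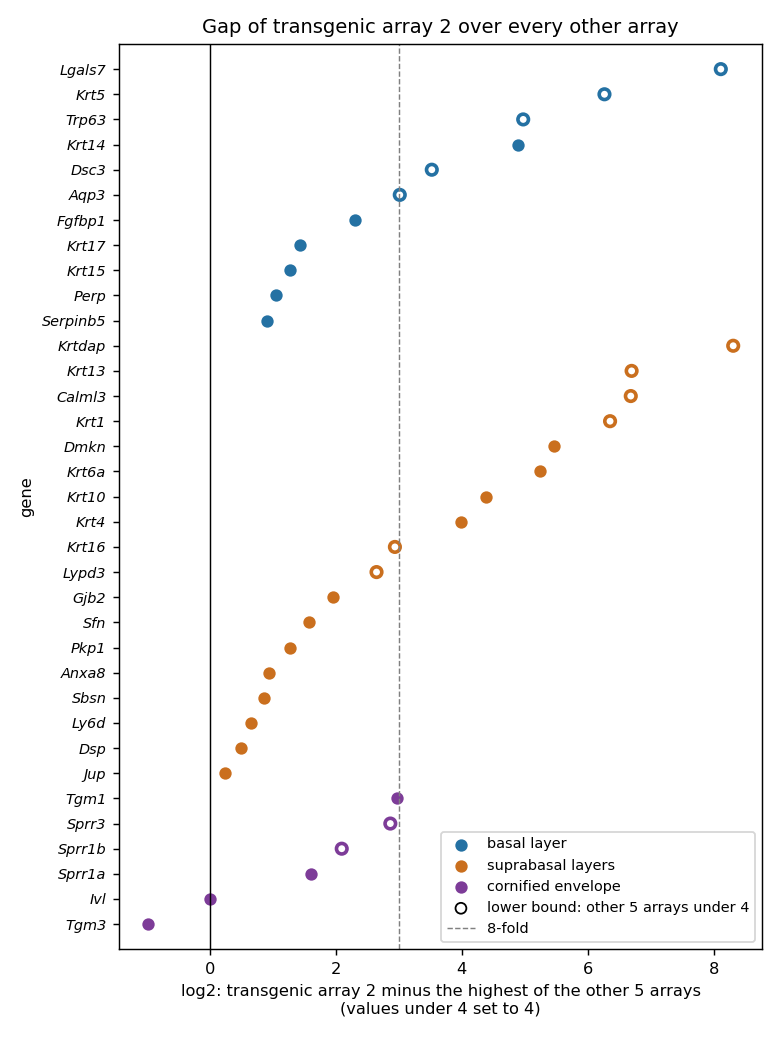
Points give, for each of 35 genes, the log2 value on transgenic array 2 minus the highest of the other 5 arrays (values under 4 set to 4); open points are lower bounds, and the dashed line marks 8-fold. Gaps run from -0.98 for Tgm3 to 8.31 for Krtdap, with 6 basal, 8 suprabasal and 0 cornified genes at or past 8-fold.

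Several members share a chromosome neighbourhood, and such neighbours shared a pattern in some cases and not in others. By the order of genes in the RefSeq table of GRCm38.p6, Sbsn, Dmkn and Krtdap lie next to each other on chromosome 7, and Sprr1b, Sprr3 and Sprr1a lie next to each other on chromosome 3 with 1 entry between Sprr1a and Ivl. In the chromosome 7 trio, Krtdap was detected on transgenic array 2 alone, Dmkn on 5 arrays and Sbsn on all 6. Krtdap and Dmkn both stood far above the next array on transgenic array 2, by at least 317.4-fold and by 44.0-fold. In the chromosome 3 group, Sprr1b and Sprr3 were detected on transgenic array 2 alone, Sprr1a on all arrays and Ivl on none. The keratins lie in clusters of their own, with Krt13 next to Krt15 and Krt16 next to Krt17 on chromosome 11, and Krt6a, Krt5, Krt1 and Krt4 on chromosome 15. Krt13 was detected on transgenic array 2 alone and its neighbour Krt15 on all arrays. On chromosome 15, Krt5 and Krt1 were detected on transgenic array 2 alone, Krt6a on 4 arrays and Krt4 on all 6.

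Upstream sequences were compared for the same reason, to set neighbours and genes of different pattern side by side. Shown are the 150 bases before the annotated start, from RefSeq GRCm38.p6, 5′ to 3′ on the strand of the gene, with capitals marking TGANTCA, the AP-1 motif, and TATAAA, the TATA motif. Sprr1a (chr3:92485882-92486031, minus strand) varied across all arrays, and its neighbour Sprr3 (chr3:92458721-92458870, minus strand) was detected on transgenic array 2 alone. Krtdap (chr7:30787755-30787904, plus strand) had the widest gap, and Krt5 (chr15:101712906-101713055, minus strand) is the basal keratin.
Sprr1a: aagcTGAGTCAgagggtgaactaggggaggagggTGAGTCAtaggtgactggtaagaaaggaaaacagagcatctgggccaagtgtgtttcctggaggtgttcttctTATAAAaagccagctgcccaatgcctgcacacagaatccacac
Sprr3: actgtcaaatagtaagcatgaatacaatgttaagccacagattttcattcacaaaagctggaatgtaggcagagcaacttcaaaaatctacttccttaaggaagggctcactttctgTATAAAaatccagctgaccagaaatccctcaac
Krtdap: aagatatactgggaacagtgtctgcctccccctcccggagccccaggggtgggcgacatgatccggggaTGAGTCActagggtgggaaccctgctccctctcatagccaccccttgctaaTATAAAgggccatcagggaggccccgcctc
Krt5: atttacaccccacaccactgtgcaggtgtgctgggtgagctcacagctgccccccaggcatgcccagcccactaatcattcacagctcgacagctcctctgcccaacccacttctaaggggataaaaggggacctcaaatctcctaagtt

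RefSeq windows from 250 bases before to 50 after the start were at hand for 23 of the 35 members, 27 windows in all, and both strands were searched. TGANTCA stood in 11 of 27 member windows (40.7%) and in 7.81% of all 32851 windows. TATAAA stood in 9 of 27 (33.3%) and in 13.6% of all windows. The motifs do not overlap each other. Several windows of a gene are not independent, and the 11 belong to 8 genes: Dmkn, Ivl, Krt13, Krtdap, Sbsn, Serpinb5, Sprr1a and Sprr1b. These 8 genes span every pattern, from Krtdap on a single array to Ivl on none and Serpinb5 on all 6. A match is a description of letters and not a binding site.

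On the other 5 arrays the squamous genes were not uniform. The widest ranges there were those of Tgm3 (5.27 on the log2 scale), Krt4 (4.15), Krt6a (3.90), Sbsn (3.66) and Sprr1a (3.43), whereas Krt5, Krt1, Krt10, Calml3 and Sprr1b ranged over 0.26 or less. The array that came after transgenic array 2 differed by gene. Control array 2 came next for 5 members, among them Krt4, Krt14 and Krt15. Transgenic array 1 came next for 8, among them Sbsn, Gjb2, Sprr1a and Krt17. The remaining places were control array 1 for 4 members, transgenic array 3 for Fgfbp1 and Krt6a, and control array 3 for Dmkn. Tgm3 and the 14 members under 4 on all other arrays have no place in this count.

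**Figure D4:**
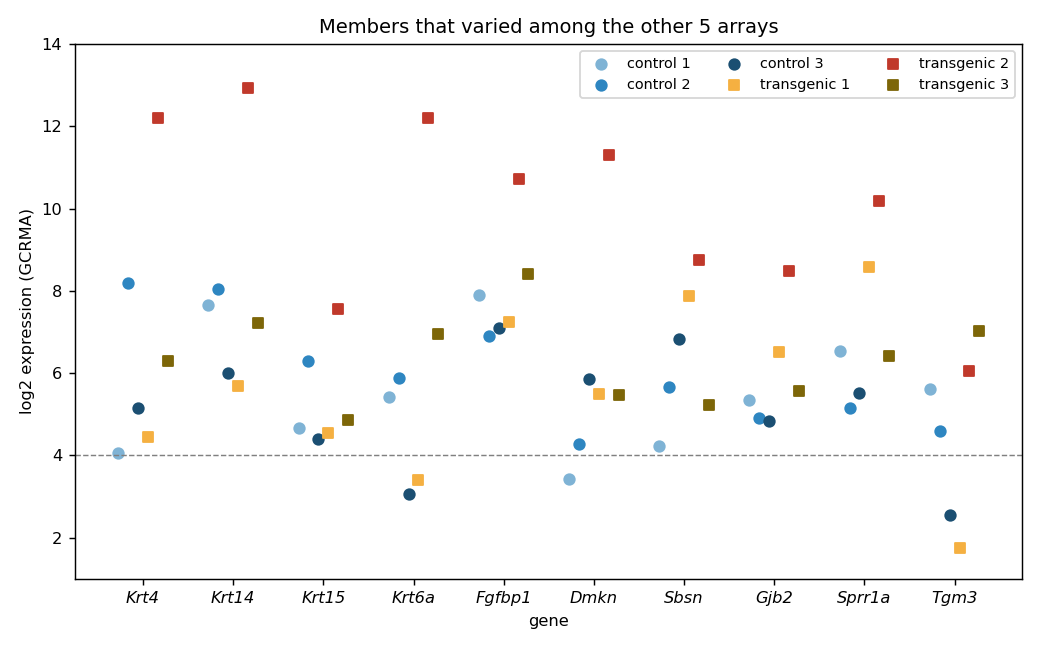
Each point is the log2 expression of 1 gene on 1 array, circles for control and squares for transgenic tumours, for 10 members picked after their values were seen; the dashed line is the detection level of 4. Control array 2 is next to transgenic array 2 for Krt4 (8.198) and Krt15 (6.30), transgenic array 1 for Sbsn (7.89) and Sprr1a (8.59), and Tgm3 is highest on transgenic array 3 (7.02).

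As a difference between the groups, the squamous genes did not pass. Of the 19310 probe sets tested, 11 had a limma adjusted p under 0.05 (0.0570%), and none of the 26 member probe sets among them, which stand for 19 genes, was one of the 11. An unadjusted p under 0.05 was reached by 2 member probe sets, those of Gjb2 and Sprr1a, against 5.50% of all probe sets tested. All 35 members had a higher mean in the transgenic group, as did 49.8% of all genes, with a median difference of 1.38 on the log2 scale against -0.00074 over all genes. Without transgenic array 2, 19 of 35 were higher, near the 45.9% of all genes that were, and the median was 0.02, against -0.02 over all genes. At least 2-fold higher means were found for 23 members with all 6 arrays (1.61% of all genes) and for 2 members, Gjb2 and Sprr1a, without transgenic array 2 (0.912% of all genes). For Krtdap the group means were 2.46 ± 0.15 in control and 5.59 ± 5.82 in transgenic tumours (SD, n = 3 each), so the difference was 3.13 on 6 arrays and -0.23 once transgenic array 2 was left out. Krt5 differed by 2.53 and by 0.05 without that array, and Krt4 by 1.85 and by -0.42.

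Gjb2 and Sprr1a kept an at least 2-fold higher mean without transgenic array 2. Sbsn and Dmkn fell just short of that cut, with differences of 0.98 and 0.96. Gjb2 was at 5.03 ± 0.28 in control and 6.85 ± 1.48 in transgenic tumours (SD, n = 3 each), a difference of 1.82 ± 0.71 (SE) with a limma adjusted p of 0.806, and of 1.01 without transgenic array 2. Sprr1a was at 5.74 ± 0.72 and 8.40 ± 1.90, a difference of 2.66 ± 0.94 with a limma adjusted p of 0.806, and of 1.76 without that array. For Sprr1a the groups overlapped, since transgenic array 3 lay below control array 1. Among the 19 tested genes, 2 had groups that did not overlap and differed at least 2-fold, Krt10 and Gjb2, against 2.02% of all genes tested. For Krt10 the difference was 1.67 with all 6 arrays and 0.20 without transgenic array 2. Krt13, which had too few arrays at 4 or more to be tested, was the third member whose transgenic arrays all lay above the controls, where 5.07% of all genes had that order. Its order outside transgenic array 2 rests on values under the detection level, at 3.24 to 3.62.

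Some further genes of stratified epithelium were high on the same array and others were not. Of 42 measured genes in the additional lists of basal, suprabasal and cornified genes, 9 stood at least 8-fold above every other array on transgenic array 2, 13 reached 4 there alone, and 15 lay under 4 on all 6 arrays. The other 14 reached 4 on at least 1 of the other 5 arrays, and 6 of these were highest on transgenic array 2. Col17a1, a collagen of the hemidesmosome, was at 8.99 against 2.83 or less, while the hemidesmosome integrin gene Itgb4 was at 8.01 within a range of 7.32 to 8.23 on the other arrays. Spink5, a protease inhibitor of the skin barrier, was at 9.70 against 2.01 or less, Lce3f, a late cornified envelope gene, at 10.35 against 1.71 or less, and Rptn, a cornified envelope precursor, at 9.07 against 2.59 or less. Csta1, a cysteine protease inhibitor, was at 7.997, 5.30 and 5.22 in control and at 4.91, 11.39 and 6.58 in transgenic tumours, and Sprr2d was next highest on transgenic array 1, at 5.08 against 8.65. Among 11 transcription factors of stratified epithelium other than Trp63, 3 were at least 2-fold above every other array on transgenic array 2: Sox2, Grhl1 and Zfp750. Barx2 and Tfap2a reached 4 there alone, at 4.13 and 4.19, and 4 of the 11 lay under 4 on all 6 arrays. Sox2 was at 2.55, 4.79 and 3.25 in control and at 2.02, 6.29 and 3.13 in transgenic tumours, with control array 2 next, as for Krt4 and Krt15.

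Of the 53 genes at least 8-fold above every other array on transgenic array 2, 14 were members (26.4% of the 53 and 40.0% of the 35 members), 9 came from the further squamous lists and 30 from no list. The lists do not hold every gene of stratified epithelium, and the 30 were not sorted by tissue. Those outside the members with the widest gaps were Krt6b, Tmprss11a, Calcb, Calm4, Lce3f, Cyp2f2, Spink5, Gm94, Fam25c, Defb45, Serpinb3a and Rptn, from at least 604.3-fold for Krt6b to at least 33.7-fold for Rptn. Tmprss11a, a membrane serine protease, was at 11.06 against 1.91 or less. Calcb, which encodes a calcitonin gene-related peptide, was at 10.68 against 4.23 or less. Defb45, a beta-defensin, was at 9.28 against 3.95 or less.

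Genes of the columnar epithelium were also present on the array with the squamous genes. The mean over 20 colon columnar genes was 11.93 on transgenic array 2 and 10.98 to 11.91 on the other 5. The simple keratin genes Krt8 (13.89), Krt18 (13.07) and Krt19 (13.54) on that array stood beside 13.58 to 13.88, 13.14 to 13.34 and 13.14 to 13.67 on the others, and Epcam, a surface protein of simple epithelium, was at 13.87 beside 13.82 to 13.95. Cdx1, an intestinal transcription factor, was highest there, at 10.27 against 9.05 or less.

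Markers of other tissues were read on the same arrays. All 6 smooth muscle genes were highest on transgenic array 2, with a list mean of 10.25, then 9.12 on transgenic array 3 and 6.09 to 7.48 on the other 4. Desmin (Des), an intermediate filament of muscle, was at 8.41 on transgenic array 2 and at 7.04 on transgenic array 3, with the others at 3.85 or less. On transgenic array 3 Krt5, Krt1 and Krtdap were at 2.77, 1.85 and 2.22, but other members ran differently. Tgm3 was highest of all arrays there, at 7.02, and Krt6a and Fgfbp1 came next to transgenic array 2, at 6.96 and 8.42. Over all members the mean on transgenic array 3 was 5.49, with 19 at 4 or more, beside means of 5.15 to 5.45 on transgenic array 1 and the controls. The part of muscle content in the squamous values was not tested. Of 10 skeletal muscle genes only Mylpf reached 4 on any array, at 4.82 to 5.16 throughout, and of 5 melanocyte genes none did. Of 13 genes of hair follicle and sebaceous gland only Scd3 did, and it was lowest on transgenic array 2, at 3.00. Of 5 urothelial genes, Upk1b and Upk3a reached 4 on any array. Upk1b was highest on transgenic array 2, at 4.35 against 3.10 to 4.03, and Upk3a was lowest there, at 3.33 against 3.80 to 6.38. In bulk tumour RNA a difference in the number of cells of a type and a difference in RNA per cell cannot be told apart.

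Of 7 posterior Hox genes, which mark position along the gut, 4 lay under 4 on all 6 arrays. Hoxd13, a Hox gene of the most posterior gut, was at 2.53, 9.90 and 2.81 in control and at 8.89, 11.62 and 10.44 in transgenic tumours, so that control array 2 joined the transgenic arrays. Hoxd11 reached 5.60 on transgenic array 2, against 3.25 or less elsewhere. Hoxb13 lay between 11.96 and 12.13 on all 6 arrays. On the 4 arrays high in Hoxd13, Krt4 was at 12.19 on transgenic array 2, 8.198 on control array 2, 6.30 on transgenic array 3 and 4.45 on transgenic array 1. Krt15 was at 7.57, 6.30, 4.86 and 4.53 on these arrays, in the same order. On control arrays 1 and 3, low in Hoxd13, Krt4 was at 4.05 and 5.16 and Krt15 at 4.67 and 4.40. The other Krt4 probe set lay under 4 on control arrays 1 and 3 and on transgenic arrays 1 and 3. Krt4 and Krt15 were picked after their values were seen, and other members ran differently. On control array 1 and transgenic array 1, Krt14 was at 7.67 and 5.70 and Krt6a at 5.42 and 3.40. On control arrays 3 and 2, Dmkn was at 5.85 and 4.29 and Sbsn at 6.84 and 5.67. The part of position along the gut in the squamous values was not tested.

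**Figure D5:**
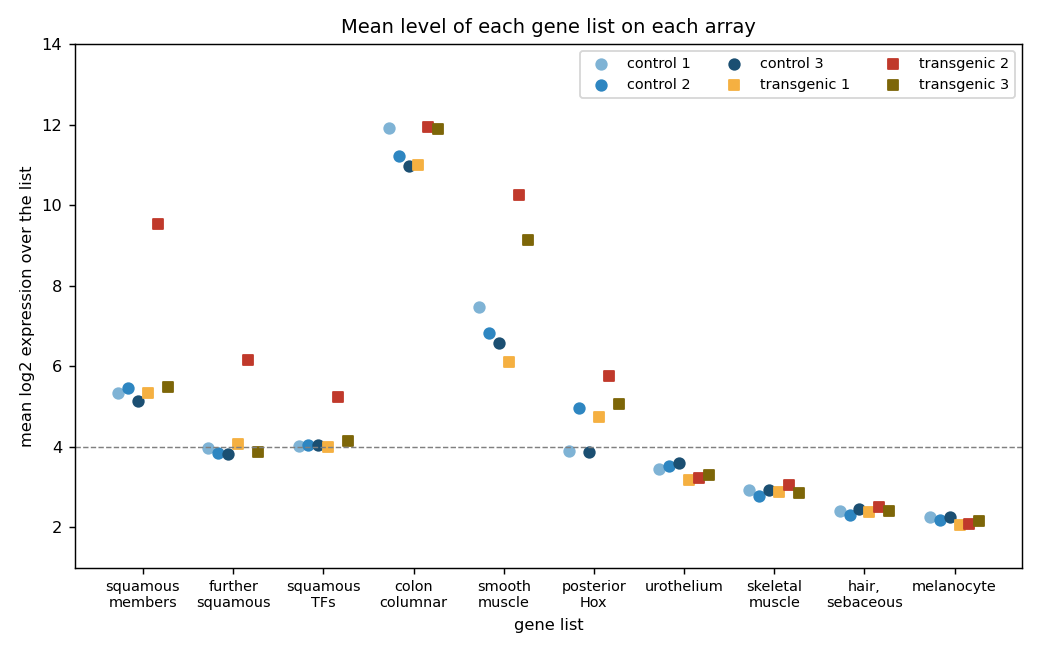
Points are the mean log2 expression over the measured genes of each list on each array, circles for control and squares for transgenic tumours; the dashed line is the detection level of 4. Transgenic array 2 lies apart for the members (9.52 against 5.49 or less) and the further squamous genes (6.15 against 4.07 or less), is beside transgenic array 3 for smooth muscle, and is beside control array 1 for columnar epithelium (11.93 and 11.91). The means of the hair and sebaceous gland and of the melanocyte genes lie under 4 on all 6 arrays.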

How the data were processed

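Each sample is 1 array. The authors deposited log2 expression values per probe set, made with GCRMA per the submitters' processing notes; the labels used here name no version. GCRMA estimates background from probe sequence, so values near 2 to 3 carry little information. The values were used as deposited. Samples were grouped by title. Gene names came from the platform annotation (34958 probe sets with 1 symbol, 932 with several, 9211 with none). The 64 control probe sets were left out. A gene stands by its brightest probe set over all 6 arrays. Probe sets at 4 or more on at least 3 arrays were tested with limma (version 3.58.1, under R 4.3.3) as transgenic minus control, by its moderated linear model and with Benjamini-Hochberg adjustment over 19310 probe sets, checked on simulated data. Precision is limited by 3 arrays per group. Members, layers and lists were chosen with earlier results of these data known. All members are named, with up to 6 genes of each further list and the 12 other genes with the widest gap on transgenic array 2. Genes of these lists outside this rule (Barx2, Lor, the simple keratins and Epcam) were named after their values were seen. Alternatives were other filters, normalizations, floors, array weights, prior variances, gap sizes, a replicate block and leaving out each array.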

Additional observations from a re-analysis of the deposited data

How the results depend on the processing

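No member probe set passed (limma adjusted p under 0.05) in any of the 15 settings tried. Over all probe sets the count of 11 ran from 3 to 7 when an array was left out, and the count of tested members at least 2-fold different with groups that did not overlap, 2 in all, was 1 without transgenic array 2, 5 if transgenic array 1 was dropped, and in between for the other arrays. The median difference over the 19 tested members was 0.68, with a lowest value of 0.17 (no transgenic array 2) and a highest of 1.41 (no transgenic array 1) when arrays were left out. The filter passes genes through the arrays where they are high, and without it the median over 35 members was 1.38. Of 490 single-gene differences, 468 kept their sign. That count says little, since settings that changed only the filter, the prior variance or the block could not alter a difference. All 35 members were higher in the transgenic group with 6 arrays, and 19 without transgenic array 2. Of the 14 members at least 8-fold above every other array, the count was 20 at 4-fold, 11 at 16-fold, 16 with quantile normalization, 15 with each array centred on its median, 18 with values under 4 as deposited and 14 over every probe set. With the replicate number of the titles as a block, 8 probe sets and 0 member probe sets passed. Same-numbered arrays correlated at -0.27, -0.28 and -0.05 in their deviations from the group means. These values gave no sign of pairing by number. They cannot exclude it, because deviations from a group mean sum to 0 over only 3 arrays. Values under 4 are bounds, which limits every fold against them.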
